A study of Mus musculus with 6 samples.

Results

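Distal intergenic regions are stretches of open chromatin that lie outside protein-coding genes but within reach of their starts. Here they are the regions that overlapping or touching ATAC-seq peaks of all 6 samples merge into, on chromosomes 1 to 19 and X, whose midpoint lies in no protein-coding gene of GENCODE M21, over 5 kb and at most 100 kb from the nearest protein-coding start and over 1 kb from the start of any other gene. 30466 of 112652 regions (27.0%) met this rule, which uses position only. They had a median width of 292 bp. ATAC-seq maps open chromatin by the adapters that the Tn5 transposase inserts into it. The cells were LSCs (leukemia stem cells) from mice with acute myeloid leukemia driven by MLL-AF9, and the labels name them L-GMP cells of WT genotype, with blood as the tissue. The cells were kept in RPMI medium with FBS and mouse IL3. The 3 control samples carry no drug label, and the labels give the 3 MMF samples a treatment of 24 h with MMF. A figure legend of the paper gives a shorter time. MMF (mycophenolate mofetil) inhibits inosine monophosphate dehydrogenase, the enzyme that commits purine synthesis to guanine nucleotides. All samples carry the leukemia, so there was no normal cell to compare with, and the labels do not say whether replicates were separate cultures. The spread between samples may therefore be technical.

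Enhancers are DNA elements that bind transcription factors and raise the transcription of a gene from a distance, often through a loop of the chromatin, and many of them lie between genes. Bound factors displace nucleosomes, which leaves the element open to Tn5. In myeloid progenitors such elements are typically bound by PU.1, C/EBP, RUNX and AP-1 factors, and C/EBP factors are needed for progenitors to become granulocytes. CTCF, which anchors chromatin loops, also occupies many intergenic sites. The nearest gene is used below as a name and a position, not as a known target.

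The sequences below are the strongest summit and 50 bp on either side of 9 such regions at which the results turn, on the plus strand of GRCm38. The first 3 (near Gimap9, Susd5 and Iqcf4) had a peak in every MMF list and in no control list, the next (Serpinh1) had one in every control list and in no MMF list, the next 3 (Atoh8, Blcap, Rnf19a) were called higher with MMF and the last pair (Scd2, Dkk2) were called lower. Capitals mark a match to one of the 12 short words searched for on both strands, which are given with the motif results.
Gimap9 region, chr6:48668153-48668253: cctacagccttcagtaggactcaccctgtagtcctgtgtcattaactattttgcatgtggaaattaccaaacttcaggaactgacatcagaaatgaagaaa
Susd5 region, chr9:114129419-114129519: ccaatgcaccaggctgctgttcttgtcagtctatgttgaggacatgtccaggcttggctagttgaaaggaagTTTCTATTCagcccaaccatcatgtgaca
Iqcf4 region, chr9:106580615-106580715: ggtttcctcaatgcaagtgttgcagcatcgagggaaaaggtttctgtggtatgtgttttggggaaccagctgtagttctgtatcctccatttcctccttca
Serpinh1 region, chr7:99360255-99360355: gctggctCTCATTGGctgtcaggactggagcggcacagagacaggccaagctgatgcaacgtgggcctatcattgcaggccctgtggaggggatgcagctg
Atoh8 region, chr6:72190252-72190352: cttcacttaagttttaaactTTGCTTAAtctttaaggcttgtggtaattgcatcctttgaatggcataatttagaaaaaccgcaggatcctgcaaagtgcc
Blcap region, chr2:157513795-157513895: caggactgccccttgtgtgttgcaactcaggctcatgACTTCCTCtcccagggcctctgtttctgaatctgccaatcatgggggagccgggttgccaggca
Rnf19a region, chr15:36334592-36334692: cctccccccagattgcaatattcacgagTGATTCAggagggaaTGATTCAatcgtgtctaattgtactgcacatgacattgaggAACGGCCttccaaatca
Scd2 region, chr19:44267067-44267167: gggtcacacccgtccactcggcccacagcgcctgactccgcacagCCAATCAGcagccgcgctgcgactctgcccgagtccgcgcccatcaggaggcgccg
Dkk2 region, chr3:132037778-132037878: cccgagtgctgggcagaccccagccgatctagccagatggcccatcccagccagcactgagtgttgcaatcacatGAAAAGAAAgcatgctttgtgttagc
The Atoh8 window holds a C/EBP word, the Blcap window a PU.1 word, and the Rnf19a window 2 AP-1 words and a MYB word. The Serpinh1 and Scd2 windows each hold an NF-Y word. A match is a description of the letters and not a bound site.

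Control lists held between 58403 and 63802 peaks and MMF lists between 80774 and 86437. The reads expected over 150 bp of the genome, which scale with depth, were 0.620 to 0.729 in control and 0.676 to 0.909 in MMF samples, with MMF sample 1 the deepest. The median summit held 14 to 19 reads. Because a deeper or cleaner library passes more peaks, each count was also made at equal list length, with the 58403 peaks of smallest p from every list. Promoters of 4 of the 7 myeloid progenitor markers (Kit, Fcgr3, Ptprc, Csf2rb) had a peak in all 6 lists, Cd34 in 5, and Mpo and Elane in 4 each. None of the 4 T cell marker promoters (Cd3e, Cd3g, Cd4, Cd8a) had a peak, and of 4 B cell markers only Pax5 did, in all 6. Among 5 erythroid and megakaryocyte markers, Klf1, Itga2b and Pf4 had a promoter peak in all 6 lists and Gata1 in 2. In a bulk sample, fewer cells with an open region and a less open region in each cell cannot be told apart.

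More distal intergenic regions had a peak after MMF treatment, and the excess came with longer lists. Of the 30466 regions, 16011, 15513 and 14374 had a peak in control samples 1 to 3, and 22324, 22110 and 20682 did in MMF samples 1 to 3. The groups did not overlap. The means were 15299 ± 839 (SD, n = 3) and 21705 ± 893 (SD, n = 3), 1.42-fold more with MMF. A two-sided exact permutation test gave p = 0.1, which is as low as 3 against 3 samples can go. At equal list length the counts were 14550, 14567 and 14374 in control and 14647, 14508 and 14511 in MMF samples. These overlapped, with means of 14497 ± 107 (SD, n = 3) and 14555 ± 79.4 (SD, n = 3) and a ratio of 1.00 (exact permutation test, two-sided, p = 0.6). Equal length fixes the number of peaks in each sample, so a change common to all kinds of region could not show in counts made this way. Distal intergenic regions took 25.6% ± 0.243 (SD, n = 3) of the control peaks and 26.3% ± 0.0642 (SD, n = 3) of the MMF peaks (exact permutation test, two-sided, p = 0.1). At equal list length it was 25.4% ± 0.132 (SD, n = 3) and 25.4% ± 0.0497 (SD, n = 3), the sign of the difference turned (-0.0782 percentage points) and the groups overlapped (exact permutation test, two-sided, p = 0.4).

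Set against other kinds of region, distal intergenic regions stood between promoters and the regions farthest from genes, and this order held at equal list length. The number of them with a peak per region within 1 kb of a protein-coding start was 0.998 to 1.07 in control and 1.29 to 1.35 in MMF samples. On the log2 scale this ratio was 0.35 higher with MMF, and 0.06 higher at equal list length, with no overlap of the groups in either case. Per region over 100 kb from any start, the log2 ratio averaged 2.15 ± 0.02 (SD, n = 3) without and 1.96 ± 0.02 (SD, n = 3) with MMF, and at equal list length 2.19 ± 0.02 and 2.12 ± 0.01. Per intronic region over 5 kb from starts, the log2 ratio averaged 0.050 ± 0.005 (SD, n = 3) without and -0.032 ± 0.004 (SD, n = 3) with MMF, and at equal list length 0.062 ± 0.013 and 0.029 ± 0.004. Each of these 3 ratios separated the groups in both forms (exact permutation tests, two-sided, p = 0.1 each and 0.1 after adjustment over the 3). Promoter regions with a peak at equal list length numbered 14364 to 14407 in control and 13786 to 13876 in MMF samples.

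**Figure D1:**
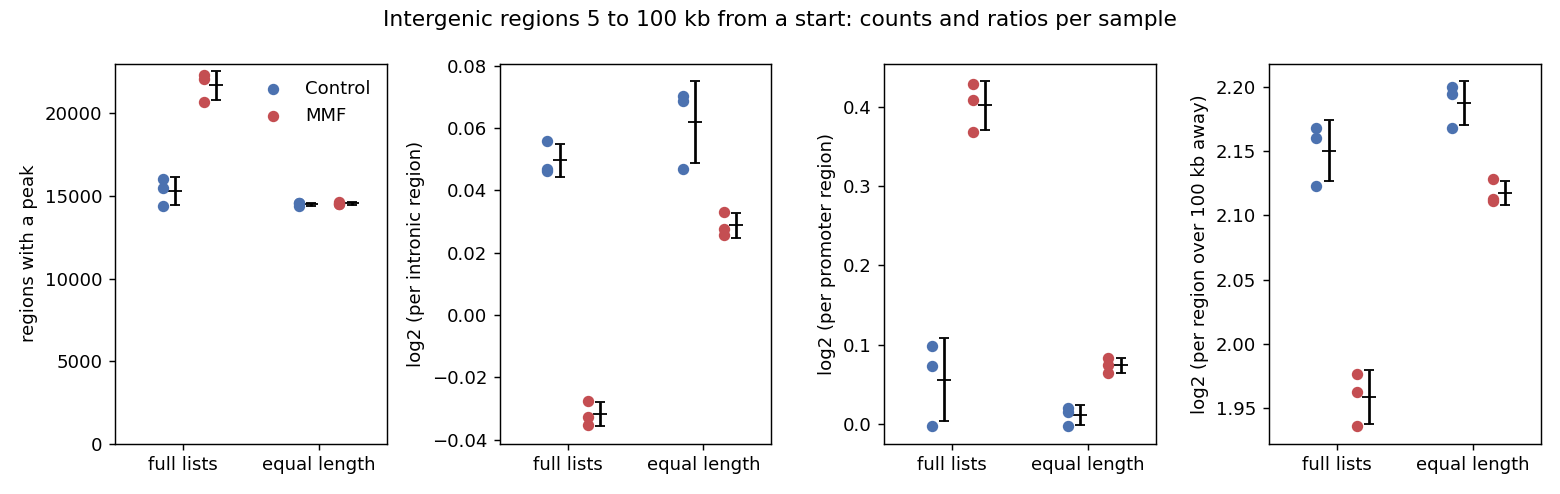
Distal intergenic regions with a peak (first panel, from 0) and the log2 of their number per intronic region, per promoter region and per region over 100 kb from a start (other panels) in each sample, with full lists and at equal list length. Points are samples, with the mean and SD beside them. The counts separate control (14374 to 16011) from MMF (20682 to 22324) only with full lists, while the 3 ratios separate the groups in both.

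Open regions of this kind were also ranked higher within the MMF lists. The percentile rank of a peak by fold enrichment within its own list, with 100 the strongest, had a median over distal intergenic peaks of 46.4, 47.0 and 46.5 in control and 49.9, 48.6 and 48.0 in MMF samples. The groups did not overlap, with a difference of 2.25 percentile points (exact permutation test, two-sided, p = 0.1). At equal list length the difference was 1.85 points and the groups were again apart (p = 0.1, two-sided exact permutation test). The peaks themselves rested on few reads, with a median of 12 at the summit in every control sample and of 13 to 17 in the MMF samples. Their median widths, between 248 and 259 bp, overlapped between the groups. Their mean GC content was 49.3 to 49.4% in control and 48.5 to 48.6% in MMF samples, and the part of GC content in the results below was not tested.

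Regions differed widely in how many samples held them. 10038 distal intergenic regions (32.9%) had a peak in all 6 lists and 7405 (24.3%) in a single list, against 36.5% and 23.6% of all regions. 5488 of the single-list regions were found in an MMF list and 1917 in a control list. 1980 regions (6.50%) had a peak in all 3 MMF lists and in no control list, called gained here, where 6.01% of all regions did. 55 regions (0.181%) were lost, with a peak in all 3 control lists and no MMF list, where 0.182% of all regions were. At equal list length 600 regions (1.97%) were gained, against 1.79% of all regions, and 349 (1.15%) were lost, against 1.05% of all regions. The shares gained and lost lay close to those of all regions in each form. Of the regions gained or lost, 97.3% were gained with full lists and 63.2% at equal list length. The share gained was 2.34% among promoter regions, 6.84% among intronic regions and 8.56% among regions over 100 kb away with full lists. With lists of equal length it was 0.714%, 1.84% and 2.23%, so that the intronic share lay below the 1.97% of distal intergenic regions.

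**Figure D2:**
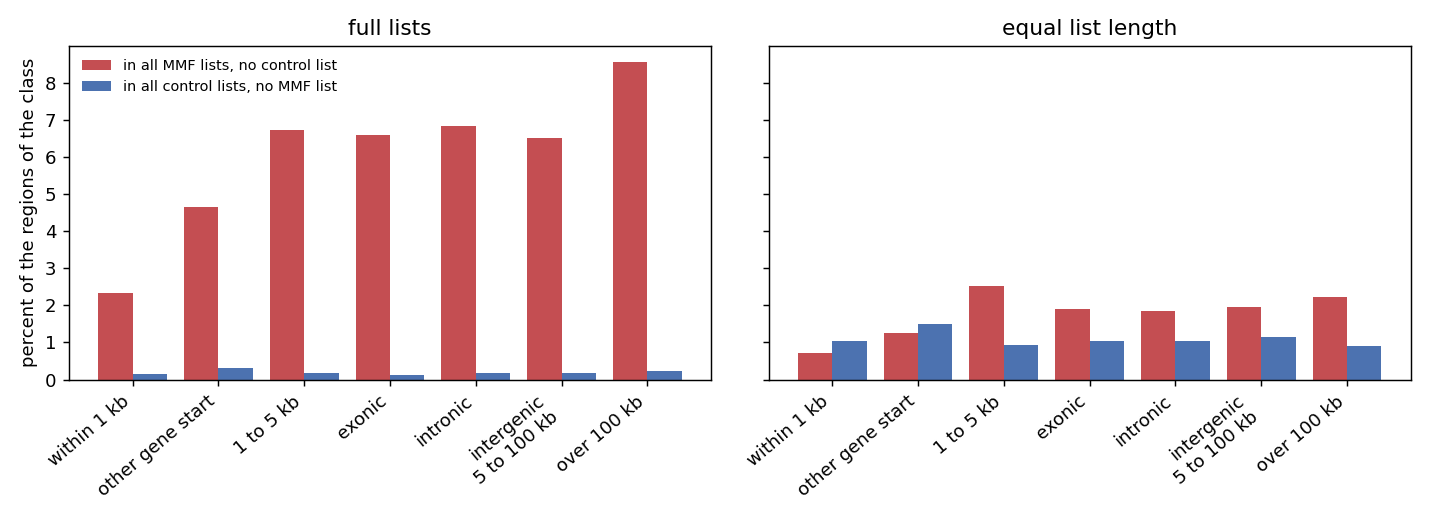
Percent of the regions of each class that had a peak in all 3 MMF lists and no control list (red) or the reverse (blue), with full lists on the left and at equal list length on the right. Distal intergenic regions stand at 6.50% and 0.181% with full lists and at 1.97% and 1.15% at equal length.

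Most gained regions ranked below the middle of the MMF lists, and few were strong. The mean percentile rank of the 1980 gained regions in the MMF lists had a median of 33.4 and quartiles of 24.2 and 44.9, where it was 71.2 for the 10038 regions that every list held. The 55 lost regions had a median of 23.4 in the control lists. The strongest gained region lay 7765 bp upstream of Gimap9, at chr6:48668074-48668654, in the cluster of GIMAP GTPase genes best known from lymphocytes. Its reads over the summit, divided by the reads expected over 150 bp of the genome (scaled reads below), were 60.5, 59.5 and 51.7 in the MMF samples, at ranks of 97.6, 95.7 and 95.4. No control list held a peak there. A region 72363 bp downstream of Susd5, at chr9:114129301-114129705, had 34.1, 29.8 and 42.9 scaled reads in the MMF samples. A region 9669 bp upstream of Iqcf4 had 28.6, 29.8 and 28.1, and one 8369 bp upstream of Gm5152 had 28.6, 31.2 and 22.2. All of these were at or above rank 70.2 in every MMF list while absent as peaks from every control list. A missing peak is a value below the calling threshold, which for a weak peak is only a few reads away.

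Anxa3, which encodes an annexin abundant in neutrophils, and Tent5c, which encodes a poly(A) polymerase, had the most gained regions nearest to them, 5 each. Anxa3 had 12 distal intergenic regions, of which 5 were gained, 3 were in every list and none was lost. These 5 lay 18210, 31611, 56310, 64043 and 76177 bp downstream of its start. The second of them, at chr5:96873413-96873805, had 27.5, 36.8 and 37.0 scaled reads in the MMF samples and holds a C/EBP word and an NF-Y word. Near Anxa3 3 regions, and near Tent5c 3, were gained at equal list length. Ptgs2 (the inducible cyclooxygenase), S1pr3 (a sphingosine-1-phosphate receptor) and Irs2 (an insulin receptor adaptor) had 4 gained regions each, and 1, 1 and 3 at equal list length. Their regions numbered 7, 14 and 18, and those of Tent5c 17, where 6.50% of all distal intergenic regions were gained. The median score difference of shared regions was 0.68 near Anxa3, 0.51 near Tent5c, 0.14 near Ptgs2, -0.13 near S1pr3 and -0.16 near Irs2. The value for Ptgs2 rests on 1 region. These genes were chosen after their counts were seen. Gained regions were nearest to 1660 of the 9251 genes with any distal intergenic region, and only 46 genes had 3 or more.

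Lost regions were few and weak. The highest-ranked, 33148 bp downstream of Ppp1r3c (a glycogen-targeting subunit of protein phosphatase 1), had 16.5, 18.8 and 14.5 scaled reads in the control samples. Its summit lies in a tandem repeat, so its reads may come from other places in the genome and this region is uncertain. The region 6935 bp upstream of Serpinh1, which encodes a collagen chaperone, had 20.6, 21.7 and 16.1. The 3 others that the rule names lay near Hmgxb4, Rpl3 and Ifngr1, at 15.1 to 20.2, 12.3 to 22.6 and 12.3 to 25.8 scaled reads in the control samples. No lost region was nearest to a gene of any of the 7 gene lists described below.

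Regions with a peak in every list could be compared by strength. The fold-enrichment ranks among the 41125 regions shared by all 6 lists were turned into normal scores and fitted with limma, without a block. Of the 10038 distal intergenic regions among them, 184 (1.83%) were called higher with MMF at an adjusted p of 0.05 and 43 (0.428%) lower. Over all shared regions 1.44% were called higher and 0.421% lower. By class, 2.03% of intronic regions, 3.72% of regions over 100 kb away and 0.263% of promoter regions were called higher. The median score difference was 0.05 over distal intergenic regions, -0.25 over promoter regions, 0.11 over intronic regions and 0.17 over remote regions, and -0.07 over all. At an unadjusted p under 0.05 there were 1565 higher and 902 lower distal intergenic regions.

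The split of these calls depends on the scale. With log2 scaled reads the fit called 2352 higher and 82 lower without centring, and 883 higher and 831 lower after each sample was centred on its median over shared regions. The median difference over distal intergenic regions was 0.30 before and -0.05 after centring, against 0.17 and -0.19 over all shared regions, so its sign turned while it stayed above that of all regions. Scaled reads of single regions are printed without centring, so a shift common to all shared regions is part of each difference. The fit of ranks kept 0 to 3 of the higher and 0 of the lower calls when any 1 library was left out. With centred scaled reads, 181 of the 184 and 40 of the 43 were called in the same direction, and leaving out 1 library kept 126 to 169 and 29 to 37 of them.

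**Figure D3:**
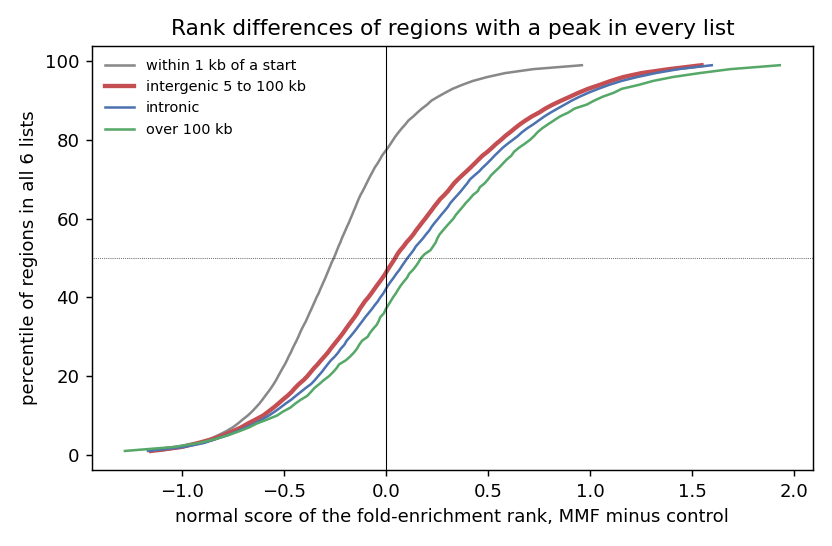
Percentiles (y axis) of the difference in normal score between MMF and control (x axis) for regions with a peak in all 6 lists, by class. The curve of distal intergenic regions, with a median of 0.05, lies right of promoter regions (-0.25) and left of intronic (0.11) and remote regions (0.17).

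The strongest calls were for regions at which the scaled reads, before centring, rose 3- to 5-fold. After centring, the log2 differences of the 10 regions named here ran from 1.29 (near Kank1) to 1.81 (near Rnf19a). The smallest adjusted p (limma, 0.0219) belonged to a region 44224 bp downstream of Atoh8, which encodes a bHLH transcription factor, at chr6:72190148-72190479. Its scaled reads were 9.60, 10.1 and 9.67 in control and 45.1, 45.3 and 38.4 in MMF samples, a 4.38-fold difference, and the score differed by 2.27 ± 0.23 (SE). The region 46219 bp downstream of Blcap, at chr2:157513588-157513989, had 12.3, 11.6 and 12.9 in control and 37.4, 43.9 and 45.8 in MMF samples. The groups stood far apart at both regions, whose sequences are printed above.

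The region 51375 bp upstream of Rnf19a, a gene for a ubiquitin ligase, had the largest ratio of the 10 named, 4.51, with 9.60, 8.68 and 11.3 scaled reads in control and 36.3, 48.2 and 48.8 in MMF samples. A region 66147 bp downstream of Zfp36l1, which encodes an RNA-binding protein that promotes mRNA decay, went from 17.2 ± 1.85 (SD, n = 3) to 59.2 ± 6.53 (SD, n = 3). A region 6035 bp downstream of Tcf7l1, a transcription factor of the Wnt pathway, went from 10.2 ± 1.90 (SD, n = 3) to 44.9 ± 4.47 (SD, n = 3). Regions near Ppp1cb (the beta catalytic subunit of protein phosphatase 1), A530064D06Rik, Fam181a, Kank1 and Gm13889 made up the rest, at ratios of 3.10 to 4.22. All 10 had an adjusted p of 0.0219 to 0.0296 by limma and of 0.00451 to 0.00735 with centred scaled reads, and in each the lowest MMF sample lay above the highest control sample.

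Repeats were more frequent among the regions called lower, in counts too small to test. Of the 10 of smallest adjusted p, those near Wac, Csf2rb and Herc3 lay in sequence that is soft-masked as repeat over the whole 200 bp at the summit, and the one near Sec14l3 over 61.0% of it. Reads over such copies may come from other places in the genome, so these 4 are uncertain. Over all 43, 16.3% were at least 50% soft-masked, against 6.52% of the 184 called higher and 8.89% of the regions in all lists.

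The region called lower with the most scaled reads among the 10 lay 26481 bp upstream of Scd2, which encodes a stearoyl-CoA desaturase, at chr19:44266824-44267562. It had 83.7, 92.6 and 93.5 scaled reads in control and 38.5, 35.4 and 32.5 in MMF samples, and its score differed by -1.45 ± 0.20 (SE; limma, adjusted p = 0.0296). A region 47393 bp upstream of Dkk2, a secreted Wnt antagonist, had 28.8, 24.6 and 25.8 in control and 8.80, 9.92 and 14.8 in MMF samples. Regions near Araf (a RAF kinase), Gm28285, Ttll10 (a tubulin tyrosine ligase-like gene) and Tbc1d9b reached 0.523 to 0.566 of the control level. The repeat-covered region 29231 bp downstream of Csf2rb, the shared beta chain of the IL3 and GM-CSF receptors, had 31.6, 40.5 and 33.9 in control and 27.5, 24.1 and 22.2 in MMF samples.

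**Figure D4:**
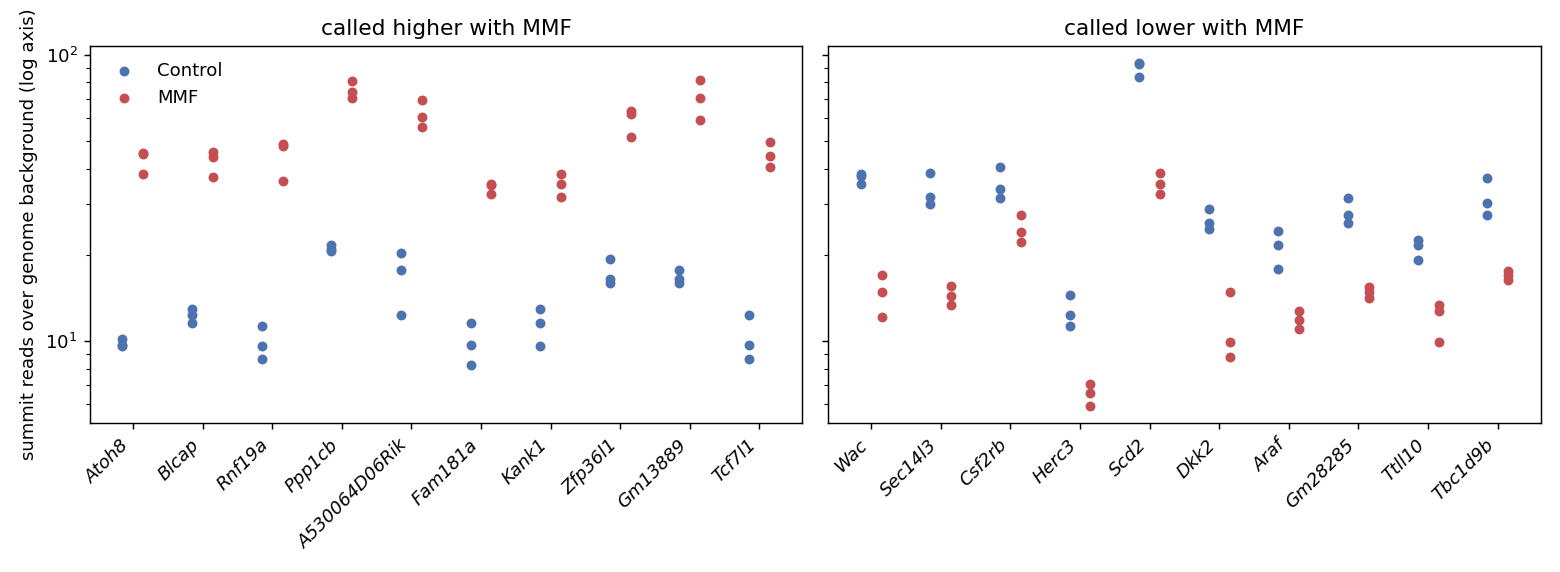
Summit reads over the genome background (log axis) in each sample at the 10 regions called higher (left) and the 10 called lower (right) of smallest adjusted p, named by the nearest gene. Control and MMF samples do not overlap at any of the 20 regions. The region near Atoh8 goes from about 9.80 to 43.0 and the one near Scd2 from 89.9 to 35.5.

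The words searched for in the 200 bp at each summit, on both strands, were TTGCNNAA for C/EBP, GAGGAAGT for PU.1, AACCACA for RUNX, TGANTCA for AP-1, CCGGAAGT for ETS, GAANNGAAA for ETS-IRF, AGATAAG for GATA, TGATTNAT for HOX-PBX, AACNGCC for MYB, CCNCACCC for KLF, CCAATNNG for NF-Y and AGGNGGCAG for CTCF, and matches of different words may overlap. The C/EBP word was found at 16.6% of distal intergenic regions, 14.97% of all regions and 8.09% of promoter regions. AP-1 was the most frequent, at 18.2% of distal intergenic and 16.1% of all regions, followed by C/EBP, RUNX (11.9% and 10.7%) and PU.1 (9.43% and 8.29%). The NF-Y word (6.48%) and the KLF word (7.87%) were below their shares of promoter regions, which were 12.4% and 12.2%.

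Peaks with a C/EBP word took a larger share of distal intergenic peaks in every MMF sample. The share was 15.96%, 15.72% and 15.90% in control and between 17.81% and 18.08% in MMF samples, a difference of 2.10 percentage points. At equal list length it was 16.26%, 15.97% and 15.90% against 19.2%, 19.4% and 19.3%, a difference of 3.25 points. PU.1 words stood in 8.99% ± 0.112 (SD, n = 3) of control and 9.68% ± 0.0948 (SD, n = 3) of MMF peaks, and 9.04% against 10.1% at equal list length. CTCF words stood in 5.01% ± 0.0808 (SD, n = 3) of control and 4.24% ± 0.0618 (SD, n = 3) of MMF peaks, and 5.12% against 4.54% at equal list length. The KLF share was 8.58% against 7.96%, and 8.62% against 8.14% at equal list length. In all 4 of these the groups did not overlap in either form (exact permutation tests, two-sided, p = 0.1 each and 0.171 after adjustment over 12 words).

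RUNX and GATA shares also separated the groups in both forms, by 0.164 and -0.173 points with full lists and by 0.296 and -0.238 points at equal list length. The AP-1 share was 19.88% in control and 18.98% in MMF samples with full lists and 20.1% in both at equal list length, where the groups overlapped and the sign turned (0.0437 points). The ETS-IRF share separated the groups at equal list length alone (7.76% against 8.03%). The ETS, HOX-PBX, MYB and NF-Y shares overlapped in both forms, with differences of -0.0118, 0.0759, -0.179 and 0.119 points with full lists.

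**Figure D5:**
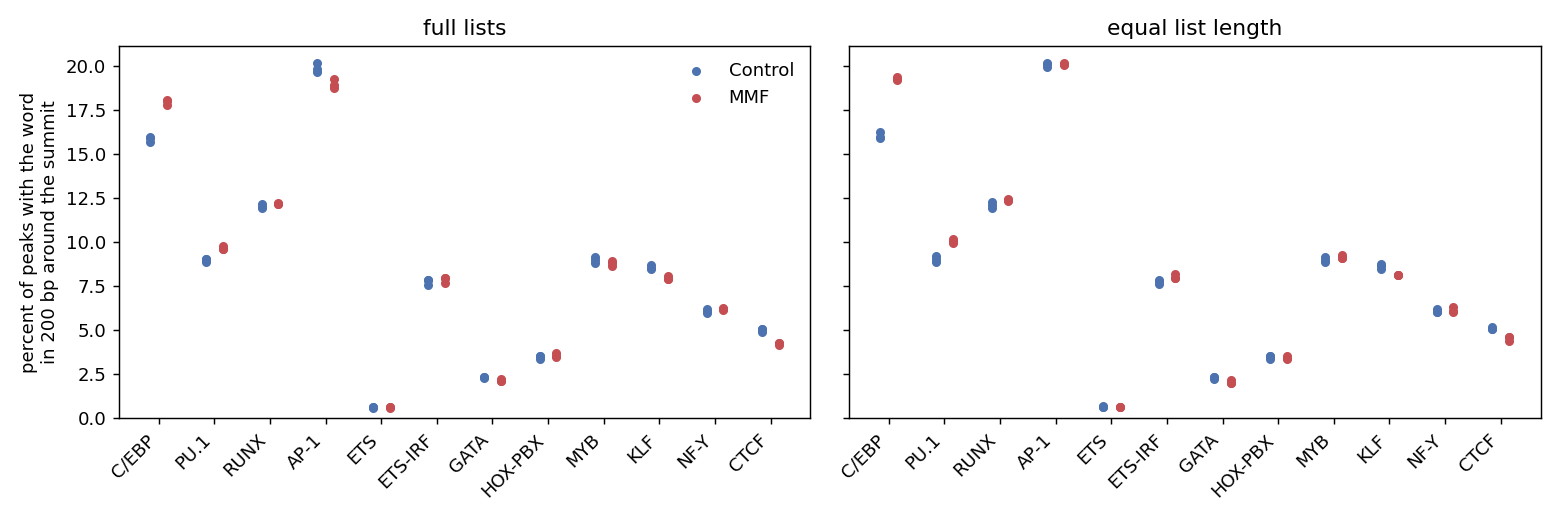
Percent of distal intergenic peaks with each word in the 200 bp around the summit, for every control (blue) and MMF (red) sample, with full lists on the left and at equal list length on the right. The C/EBP share lies between 15.72 and 15.96% in control and between 17.81 and 18.08% in MMF samples, and the CTCF share is lower in each MMF sample.

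The C/EBP difference was not shown to be particular to regions at this distance. In intronic peaks the share was 15.9% in control and 17.9% in MMF samples, and the difference in distal intergenic peaks exceeded the intronic one by 0.127 points, and the samples overlapped (p = 0.5, two-sided exact permutation test). In peaks over 100 kb away it was 19.3% and 22.1%, a difference larger by 0.682 points, with the samples apart (p = 0.1, two-sided exact permutation test). In promoter peaks it was 6.84% and 8.01%, a difference smaller by 0.937 points, with the samples again apart (p = 0.1, two-sided exact permutation test). After adjustment over all such comparisons of the 12 words, the last 2 p values became 0.189. The CTCF difference was -0.775 points in distal intergenic and -0.548 points in intronic peaks, and the samples did not overlap in that contrast either (exact permutation test, two-sided, p = 0.1), but they did at equal list length (p = 0.7, same test).

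The shares also differed between the sets of gained, lost and called regions. A C/EBP word stood in 24.1% of the 1980 gained regions, 29.2% of the 600 gained at equal list length and 29.3% of the 184 called higher. It stood in 18.2% of the 10038 regions in all lists. Among the 55 lost regions it was found in 7.27%, among the 349 lost at equal list length in 6.88% and among the 43 called lower in 6.98%. The KLF word ran the other way, at 6.67% of gained, 12.7% of lost, 2.72% of higher and 13.9% of lower regions. The CTCF word stood in 2.58% of gained regions and 5.11% of those in all lists. An NF-Y word, common at promoters, stood in 5.96% of gained and 1.82% of lost regions, and at equal list length in 6.83% and 4.01%. With 55 lost and 43 lower regions, the shares of these sets rest on very few regions. These shares are descriptions of sets that overlap in part with the per-sample shares above. Intronic regions gave like shares for C/EBP, 23.1% of those gained and 5.08% of those lost. They did not for the KLF word, at 5.45% of gained and 5.08% of lost intronic regions. Among intronic regions called higher and lower the KLF word stood in 5.32% and 11.8%. An NF-Y word stood in 5.40% of gained and 6.78% of lost intronic regions.

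The regions were also split by distance from the nearest start. 5673 regions lay at 5 to 10 kb, 10446 at 10 to 25 kb, 8029 at 25 to 50 kb and 6318 at 50 to 100 kb. The number with a peak was 1.41-, 1.38-, 1.43- and 1.48-fold higher with MMF in these classes in turn with full lists, and the ratio was 1.001, 1.001, 0.999 and 1.019 at equal list length. The farthest class made up 19.7% ± 0.221 (SD, n = 3) of the distal intergenic regions that control lists held and 20.6% ± 0.134 (SD, n = 3) of those that MMF lists held (exact permutation test, two-sided, p = 0.1, and 0.2 after adjustment over 4 classes), and 19.6% against 19.9% at equal list length, with p = 0.3 by the same exact test. The median score difference was 0.01, 0.03, 0.05 and 0.11 in the order of distance, and the share of regions with a C/EBP word was 14.0%, 16.5%, 16.8% and 18.9%. 61.9% of all distal intergenic regions lay upstream of the nearest start, and 6.39% of these and 6.68% of the downstream ones were gained.

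The strongest distal intergenic regions were extreme outliers in reads. In the 5 of highest mean rank, near Pak3, BC048403, Gtpbp4, Zfp945 and Abcb11, the scaled reads ran from 1856 to 10539 in single samples, where the median over regions in all lists was 28.1. They were chosen for standing at the top of every list, so their ranks had almost no room to differ and limma on ranks could not test them. With centred scaled reads those near Pak3, Gtpbp4 and Zfp945 were lower with MMF (limma, adjusted p = 0.0286, 0.0173 and 0.0167). The region near Abcb11 matched the mitochondrial genome over 129 bp at 100% identity. Across all distal intergenic regions 3 had a match of at least 100 bp at 90% identity or more, and 2 of these were among the 25 regions with over 1000 scaled reads. Nuclear and mitochondrial reads cannot be told apart there. No region that was gained, lost or called had such a match.

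Distal intergenic regions came in groups along the chromosomes. With gaps of at most 10 kb they formed 14715 chains, of which 1151 held 5 or more regions and 25.2% of all of them, while 7722 regions stood alone. The chain with the most held 35 regions over 127452 bp next to Zfp217 and Bcas1 on chromosome 2 (chr2:170153594-170281045), of which 10 were in every list, 3 were gained and none was lost. A chain of 25 regions near Atg7 and Hrh1 had none in every list and none gained or lost.

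Among the genes with the most distal intergenic regions nearest to them were Zfp217 with 31, Ywhaz with 29, Zfp36l2 with 26 and Rybp with 24. Zfp217 encodes a zinc finger transcription regulator, Ywhaz a 14-3-3 protein, Zfp36l2 an RNA-binding protein and Rybp a Polycomb complex subunit. Their gained regions numbered 3, 1, 0 and 0, none had a lost region, and their only call was 1 lower region near Zfp36l2. The median score difference of their shared regions ran from -0.35 near Zfp217 to 0.50 near Rybp, and that of Rybp turned to -0.16 with centred scaled reads.

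Genes of 7 lists were followed by their nearest distal intergenic regions. Of 16 regulators of myeloid differentiation, 11 had such regions, 92 in all, with 8 gained (8.70%, against 6.50% of all distal intergenic regions), none lost, 32 in every list and 1 called lower. The median score difference of the 32 was 0.41, and it was 0.05 when every region within 100 kb of a listed gene was taken. Fos, a subunit of AP-1, had 19 of the regions, Id2, an inhibitor of bHLH factors, 11 and Cebpa, the C/EBP factor of granulocyte commitment, 11. Nfil3 had 10, Klf4, Gfi1 and Jun 8 each, Egr1 6, Cebpd 2 and Cebpe 1. Nfil3 had 2 of the gained regions, and Fos, Id2, Gfi1, Jun and Egr1 had 1 each. At equal list length 5 of the 92 (5.435%) were gained and 2 (2.174%) lost. Over all distal intergenic regions it was 1.97% and 1.15%.

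Near Cebpa none of the 11 regions was gained or lost and 3 were in every list. The best-ranked, 7848 bp downstream at chr7:35126836-35127467, had 34.3, 30.4 and 38.7 scaled reads in control and 63.8, 49.6 and 62.1 in MMF samples. The groups did not overlap, and the score difference of 0.54 ± 0.23 (SE) did not pass the test (limma, adjusted p = 0.2). A shared region 19105 bp downstream had 12.3, 11.6 and 16.1 in control and 13.2, 18.4 and 11.8 in MMF samples, with overlap and a score difference of -0.50 (limma, adjusted p = 0.375), and the shared region 20441 bp upstream had a score difference of 0.73 (limma, adjusted p = 0.225). A region 25141 bp downstream had a peak in control sample 1 alone. Another, 31818 bp downstream with a PU.1 word, had a peak in control sample 3 at 12.9 and in all MMF samples at 23.1, 28.3 and 20.7. One 8603 bp downstream with a C/EBP word, had a peak in control sample 2 at 18.8 and in all MMF samples at 46.2, 31.2 and 31.0. This pair was chosen after the values were seen. The 1 call in this list was a region 26258 bp downstream of Egr1, an immediate early zinc finger factor, at 96.0, 82.4 and 83.8 in control and 63.8, 65.2 and 63.6 in MMF samples (limma, adjusted p = 0.0494).

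Of 25 myeloid effector genes 18 had distal intergenic regions, 52 in all. Of these, 3 were gained (5.77%, against 6.50% of all distal intergenic regions) and none was lost. Every list held 29, and 2 of the 29 were called higher, where 1.83% of all shared distal intergenic regions were. One call lay 6570 bp downstream of Cd14, a monocyte receptor for lipopolysaccharide, at 10.98, 8.68 and 12.9 scaled reads in control and 39.6, 34.0 and 41.4 in MMF samples (limma, adjusted p = 0.0352). The other lay 9547 bp downstream of S100a8, a calcium-binding protein of neutrophils, at 12.3, 8.68 and 11.3 in control and 34.1, 28.3 and 28.1 in MMF samples (limma, adjusted p = 0.0471). Csf3r, the G-CSF receptor, had 7 regions, and the best of them held a C/EBP word and averaged 38.3 ± 2.44 (SD, n = 3) scaled reads without and 55.4 ± 8.98 (SD, n = 3) with MMF, not called (limma, adjusted p = 0.546). The centred log2 difference of this region was 0.17. The best regions of Fcgr3 and Ly6c2, which had 5 regions each, were at 84.4 and 82.1 and at 2245 and 2026 scaled reads in control and MMF samples, and neither was called.

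Ly6g and Ltf also had 5 regions, Ccr2 4, Lyz1 and Cd14 3, Itgam, Csf2ra, S100a8, S100a9 and Lyz2 2, and Csf1r, Ctsg, Camp, Mmp8 and Mmp9 1. The 3 gained regions of this list lay near Ly6g, Cd14 and Mmp8. At equal list length none of the 52 was gained, against 1.97% of all distal intergenic regions. In that form 1 (1.92%) was lost, against 1.15%. The median score difference of the 29 regions in every list was 0.06, near the 0.05 of all distal intergenic regions.

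Of 15 targets of MLL-AF9, 9 had distal intergenic regions, 47 in all, with 4 gained (8.51%, against 6.50% of all distal intergenic regions) and none lost. At equal list length 1 was gained (2.13%, against 1.97% of all distal intergenic regions). In this list 13 regions were in every sample and none was called, at a median score difference of 0.10. Myc had 10, of which 3 were gained with full lists and none at equal list length. Cdk6 and Myb had 7 each, Mef2c and Meis1 5, Zeb2 4 and Eya1 and Jmjd1c 1. The best Myc region, 12383 bp downstream, had 26.1, 30.4 and 32.2 scaled reads in control and 38.5, 42.5 and 34.0 in MMF samples (limma, adjusted p = 0.517). The centred log2 difference of this region was 0.02. The best Cdk6 region was at 99.8 ± 9.77 (SD, n = 3) and 97.2 ± 11.8 (SD, n = 3), with overlap. The best Myb region was at 8.23, 13.0 and 9.67 in control and 13.2, 29.8 and 13.3 in MMF samples, where MMF sample 2 set the mean.

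Among 7 stem and progenitor factors, 6 had 50 regions, with 3 gained (6%, against 6.50% of all distal intergenic regions), none lost, 17 in every list and none called, at a median of 0.24, which was 0.11 with all regions within 100 kb. With lists of equal length 1 of the 50 was gained (2%, against 1.97% of all distal intergenic regions). Runx1 had 14, Lmo2 12, Erg 11, Gata2 8, Fli1 4 and Tal1 1. The best Lmo2 region had 24.7, 44.8 and 43.5 scaled reads in control and 60.5, 59.5 and 68.0 in MMF samples (limma, adjusted p = 0.33). The best Runx1 region was at 36.6 and 34.1, and the best Erg region, 56.0% soft-masked, at 46.6 and 60.7.

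The 10 genes of purine synthesis and salvage, a pathway in which MMF blocks the step to guanine nucleotides, had few such regions. 5 of them had 13, with 1 gained (7.69%, against 6.50% of all distal intergenic regions), none lost, 2 in every list and none called. The median score difference was 0.02, and -0.10 with all regions within 100 kb. Hprt had 6, Impdh1 3, Atic 2, and Gmps and Pfas 1 each. The gained region lay 7458 bp downstream of Impdh1, which encodes one of the enzymes MMF inhibits, at 15.4, 9.92 and 13.3 scaled reads in the MMF samples, and it was not gained at equal list length. The best Hprt region had 35.7, 28.9 and 45.2 in control and 38.5, 46.8 and 54.7 in MMF samples (limma, adjusted p = 0.724).

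Lists of other blood lineages gave 10 regions near 5 of 11 lymphoid genes and 11 near 5 of 11 erythroid and megakaryocyte genes. None of the lymphoid regions was gained or lost, 3 were in every list (2 near Ebf1 and 1 near Ms4a1) and none was called. The median score difference of these 3 was -0.79, with a median of -0.84 near Ebf1 and a value of 0.83 near Ms4a1, and it was -0.25 with all regions within 100 kb of a listed gene. Il7r had 3 of the regions, Cd4 2 and Cd3e 1. Of the erythroid and megakaryocyte regions, 3 lay near Tfrc and 1 each near Gata1 and Hbb-bt. Of all 11, 1 was gained and none was lost or called, and at equal list length none was gained. The best Tfrc region had 24.7, 23.1 and 16.1 scaled reads in control and 25.3, 48.2 and 44.4 in MMF samples, without overlap. Its percentile ranks within the lists did overlap, with control sample 1 at 73.65 and MMF sample 1 at 70.60. The centred log2 difference of this region was 0.50, and it did not pass the test of scores (limma, adjusted p = 0.326). Each of these lists holds too few regions to set apart from the 6.50% gained over all distal intergenic regions, and no test between the lists was made.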

How the data were processed

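The authors trimmed the reads (Trim Galore, after FastQC), used Bowtie2 for mapping to mm10, and MACS2 called peaks sample by sample (no versions in the sources used here). Each deposited list gives a fold enrichment (ratio), −log10 p and −log10 q values per peak. The p and q values were used as thresholds and ranks, and the authors' score column was not used. Coordinates are GRCm38. Sequences outside chromosomes 1 to 19 and X (0.362 to 0.447% of a list) were left out. Peaks were merged, and classes used every transcript start of GENCODE M21. Summit reads were solved from fold enrichment, (reads + 1) / (background + 1), and Poisson p, and came out whole in 100% of peaks of every list (tolerance 0.01% of the p). Shared regions were tested with limma 3.58.1 (R 4.3.3; lmFit, eBayes, Benjamini-Hochberg). Group values were tested by exact permutation. Scripts used Python 3.11.15, scipy 1.17.1, pysam 0.24.0 and blastn 2.17.0, and steps were tested on simulated data. Regions, gene lists, words and tests were chosen with earlier results of these data known. Named regions were the 5 gained and 5 lost of highest mean rank, the 10 called higher and 10 called lower of smallest adjusted p, the 5 strongest, the best region of the 3 genes with most regions per list, and others where said; called regions of the lists were also named. Printed sequences left out regions at least 50% soft-masked, and some genes and 1 sequence are not reported here. At most 672 intervals were identical between any 2 lists, so none was a duplicate. The labels give no batch.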

Additional observations from a re-analysis of the deposited data

How the results depend on the processing

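At equal list length 1.97% of the regions were gained and 1.15% lost, against 6.50% and 0.181% with full lists, and limma called 307 higher and 71 lower. The share of peaks in distal intergenic regions (-0.0782 points) and the AP-1 (0.0437), HOX-PBX (-0.0367) and MYB (0.149) shares turned sign. In a 100 bp window the ETS (0.0270) and GATA (0.0255) shares turned sign, as did RUNX (-0.0384) in a 400 bp window. With 1 library left out, the share gained ran from 7.91 to 9.86% (highest without MMF sample 3), the share lost from 0.332 to 0.499% (over 1.5 times the full value without any sample), limma calls from 0 to 3 higher (3 without control sample 1) and 0 lower throughout, and the ETS difference from -0.0268 to 0.00472 points, turning sign without control sample 2. Both shares grow there because fewer lists are required. The other alternatives for the calls gave 736 higher and 16 lower with ranks in the whole list, 2352 and 82 with scaled reads, 883 and 831 with centred scaled reads, and 312 higher with an eBayes trend. The replicate block gave 0 higher and 0 lower (1543 and 847 at an unadjusted p under 0.05). Deviations of same-numbered samples correlated at 0.0074, 0.0028 and 0.0041, too low to pair them, although each sample correlated best with its own number. Alternatives added after the data were seen gave, with centred scaled reads, 526 higher and 331 lower without control sample 1, 506 and 297 without control 2, 557 and 340 without control 3, 243 and 123 without MMF 1, 314 and 206 without MMF 2, 341 and 185 without MMF 3, 646 and 479 with the replicate block and 1122 and 1274 with a trend, and 0.318% lost where a peak had to cover at least 50% of its region. The planned overlap alternative changed nothing because each peak lies whole in its own region. The region near Ly6c2, not called by ranks, turned to -0.50 with centred scaled reads, with and without a trend (limma, adjusted p = 0.0444 without). When all genes within 100 kb counted, the median score difference moved from 0.41 to 0.0483 near myeloid regulators, from -0.79 to -0.254 near lymphoid genes, from 0.24 to 0.11 near stem and progenitor factors and from 0.37 to 0.16 near erythroid and megakaryocyte genes, and turned from 0.02 to -0.10 near purine genes. A q threshold, gene starts in place of transcript starts and ranks by −log10 p left the sign of each group difference computed under them, and each count within 1.5 times. With ranks by −log10 p some single regions that were not called turned sign, such as those near Fos and Cdk6. Except where stated, the causes of these changes were not tested. The median distal intergenic peak rests on 12 to 17 reads, so absence from a list is not absence of open chromatin.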

Other observations

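Some genes outside the lists had many distal intergenic regions. The receptors S1pr1 and Cxcr4, both of which guide the traffic of blood cells, had 21 such regions each. The 7 in every list near S1pr1 had a median score difference of 0.68 (0.63 with centred scaled reads), and the 7 near Cxcr4 one of 0.37 (0.58), with 1 called higher. Near Rbpj, the DNA-binding factor of Notch signalling, 9 of 20 regions were in every list, with a median of 0.60 (0.36), and 3 were gained. These genes were chosen after their values were seen, and no list of this kind was tested.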
